A study of Mus musculus with 12 samples.

Results

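The genes described here are those of the tripartite motif (TRIM) family of ubiquitin ligases, taken by symbol: every entry named Trim, a number and at most 1 further letter, with a value above 0 in any library. Of 65 such entries, 12 were at 0 in all 12 libraries and 53 are members, out of 16535 entries with a value above 0 and 24062 entries in all. A level above 10 normalised counts in at least 3 libraries, the filter for testing, was passed by 38 members, and 15 stayed below it. Of the 38, 32 are called well measured, with a mean of 100 normalised counts or more over all libraries or in a group. A gene enters through its symbol and a value above 0 in any library, and the rule uses no difference between the groups. The family itself was chosen with earlier results of these data known.

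RNA was measured by sequencing in primary wild-type bone marrow derived macrophages of C57Bl/6 mice, labelled as passage 1. There were 4 groups of 3 libraries: cells with no stimulation, cells given C-178 (the STING inhibitor of this study), cells given CMA (10-carboxymethyl-9-acridanone, an agonist of mouse STING), and cells given C-178 and CMA together. The treatments lasted 2 h. No group lacks STING and no vehicle is named, and the labels do not say whether the libraries of a group came from separate cultures or animals, so p-values measure the spread between these libraries, which may be technical. The note on RNA extraction speaks of embryonic fibroblasts, whereas every sample label says macrophages.

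TRIM proteins carry a RING finger, B-box zinc fingers and a coiled coil, followed by a variable C-terminal part that binds the substrate. The RING recruits a ubiquitin-loaded E2 enzyme, and the ligase passes the ubiquitin on to its target, as a signal for degradation or for the assembly of a signalling complex. Many members are induced by interferon, act on viral capsids, or adjust the sensors of foreign nucleic acids, among them STING, which relays the detection of cytosolic DNA by cGAS to the kinase TBK1, the factor IRF3 and the NF-κB pathway.

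Values are normalised counts, in which a library's reads are divided by a factor for its depth. The number of recovered reads in a library was between 13.907 and 17.449 M in unstimulated cells, between 7.0495 and 28.476 M under C-178, between 7.1259 and 7.8263 M under CMA and between 7.7663 and 36.438 M under both compounds, so every CMA library was shallower than every unstimulated one. All 9 macrophage markers in the table were above 100 normalised counts without stimulation, with a summed level of 456360 to 475350 there. Of 10 fibroblast markers 4 were above 100 there, none was at 0 everywhere, and their summed level was 1325 to 1492 without stimulation, 1677 to 1954 with C-178, 1661 to 2998 with CMA and 764 to 2088 with both compounds. Other lists were low as well without stimulation: 4 of 7 neutrophil markers were above 100 (summed level 853 to 1203), 2 of 8 lymphoid (990 to 1114) and 0 of 5 dendritic (79.1 to 92.6). The part of cells other than macrophages in the results below was not tested, and in bulk RNA fewer cells of a type and less RNA per cell cannot be told apart. The libraries with both compounds varied most: the median SD of log2 values was 0.329 over the well-measured members, against 0.116 without stimulation, 0.175 with C-178 and 0.155 with CMA. Within that group library 3 was the lowest for 12 of the 13 members that CMA raised, and the member calls that differ without it are given below. It was not the only library that differed. Over the well-measured members the median log2 difference from the mean of the other 2 libraries was 0.19 for library 1, 0.27 for library 2 and -0.19 for library 3. In all that follows a gene is called changed at an adjusted p under 0.05 in limma with Benjamini-Hochberg adjustment over all 11440 tested genes, log2 changes are on the scale of normalised count + 1 and are given ± SE, and groups of 3 libraries are given as mean ± SD. The unstimulated libraries are named 1, a and b, since 2 of their columns have the same heading.

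CMA alone moved the family in both directions. Of the 38 tested members, 13 were called higher than without stimulation and 12 lower, against 19.4% and 17.9% of all tested genes, and the member median of 0.11 on the log2 scale stood beside -0.01 over all genes. Of the 7 tested Trim5-like genes, relatives of the retroviral capsid factor TRIM5, 6 rose and 0 fell. Regulators of innate immune signalling were split, with 5 of 15 higher (Trim21, Trim25, Trim26, Trim56 and Trim14) and 5 lower (Trim8, Trim65, Trim41, Trim35 and Trim27). Among the 3 tested TIF1 chromatin cofactors Trim24 fell. Of the 4 tested members with NHL or filamin repeats Trim3 and Trim32 fell. The single tested member with a COS box, a microtubule-binding element, was Trim36, and it fell. Of the remaining 8 tested members Trim69 and Trim17 rose and Trim16, Trim47 and Trim39 fell. Trim69 and Trim17 passed the filter for testing only through the CMA libraries, the group in which they were high. Their rise is therefore no independent result, and the counts of 13 and 16 in this paragraph include them. Libraries of the groups did not overlap for 16 members that were higher and 14 that were lower with CMA, against 31% and 30.9% of all tested genes.

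The promoters of several genes that CMA raised hold a short sequence, which is shown because it is a form of the element bound by interferon regulatory factors. RefSeq promoters (build GRCm38.p6, 250 bases before to 50 after the start) were available for 40 of the 53 members and were searched on both strands for GAAA, 2 bases of any kind and GAAA again. Among these 40 were 11 of the 13 members that rose with CMA (not Trim14 and Trim17) and only 6 of the 12 that fell. A match was present in 7 of 11 members that CMA raised, in 0 of 6 that fell, in 1 of 11 tested members that were not called (Trim2) and in 0 of 12 below the filter, while 3.44% of all 32851 promoters and 3.99% of all 27025 genes hold one. In the windows of 30 bases below, written 5′ to 3′ on the strand of the gene, capitals mark the match, which reads as TTTC, 2 bases and TTTC where it lies on the other strand.
Trim30a (chr7:104465210-104465239, minus strand): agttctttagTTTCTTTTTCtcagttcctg
Trim30d (chr7:104507871-104507900, minus strand): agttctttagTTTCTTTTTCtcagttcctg
Trim12c (chr7:104353359-104353388, minus strand): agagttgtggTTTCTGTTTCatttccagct
Trim12a (chr7:104315466-104315495, minus strand): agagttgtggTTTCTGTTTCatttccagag
Trim34a (chr7:104244457-104244486, plus strand): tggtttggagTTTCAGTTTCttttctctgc
Trim21 (chr7:102565447-102565476, minus strand): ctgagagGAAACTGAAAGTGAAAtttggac
Trim26 (chr17:36836979-36837008, plus strand): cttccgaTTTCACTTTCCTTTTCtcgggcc
Trim2 (chr3:84212791-84212820, minus strand): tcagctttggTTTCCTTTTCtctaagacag
The windows of Trim30a and Trim30d are the same in every letter, and those of Trim12c and Trim12a share their first 28 letters, so these 4 are not independent examples. Trim21 and Trim26 each hold 2 overlapping matches, and Trim30a has a further match at another annotated start. Counted from the RefSeq start of the promoter shown, the first base of the match was at -36 in Trim30a, -41 in Trim30d, -29 in Trim12c and -160 in Trim26. It lay after that start, at 10, in Trim34a and Trim12a, at 13 in Trim21 and at 28 in Trim2. The start used for Trim2 is 1 of several and lies inside the gene (chr3:84160439-84306877, minus strand). The match of Trim12a lies before the start of the gene span given below. The promoters of 4 further genes that rose, Trim30b, Trim25, Trim56 and Trim69, hold no match in the searched window. A form of the NF-κB element, GGGA and TTCC with 2 bases between them on either strand, was found in 1 member promoter, that of Trim28, and in 1.47% of all promoters (1.63% of genes). A match is a description of the letters and not evidence of binding.

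The Trim5-like genes lie together on chromosome 7, and Trim30a was the most abundant of them. Trim30a (chr7:104409025-104465193 in GRCm38), a ligase known to restrain Toll-like receptor signalling and to target STING for degradation, was at 3007, 2252 and 2627 normalised counts without stimulation and 11102, 15347 and 14161 with CMA. Every CMA library was thus above every unstimulated one, a rise of 2.36 ± 0.28 on the log2 scale (adjusted p = 1.19e-05). With C-178 alone it was at 2726, 3472 and 2198, which overlapped the unstimulated libraries. With both compounds it was at 7011, 9173 and 3638, below every CMA library and above every library of cells given C-178 alone. Its neighbour Trim30d (chr7:104470014-104507849) rose from 894, 629 and 749.7 to 4260.5, 5659 and 5073, a log2 change of 2.73 ± 0.29 (adjusted p = 4.06e-06), and was at 2746, 3648 and 1378 with both compounds. In each of these genes the lowest value with both compounds was that of library 3.

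Trim30b (chr7:104355382-104369884) showed the steepest rise among the well-measured members. It was nearly silent without stimulation, at 15.2, 8.96 and 15.8 normalised counts, and reached 209, 314 and 272 with CMA, 19.9 times the unstimulated mean (log2 change 4.23 ± 0.30, adjusted p = 8.07e-08). With both compounds it was at 161, 189.9 and 129.9, so that the groups with CMA lay far above both groups without it. The paralogs Trim12a and Trim12c, mouse relatives of TRIM5, behaved alike under CMA. Trim12a (chr7:104299894-104315466) went from 337, 411 and 410 to 1315, 1486 and 1459 (log2 change 1.88 ± 0.12, adjusted p = 3.54e-08). Trim12c (chr7:104338754-104353362) went from 583, 543 and 634 to 1679.5, 2086 and 1962 (log2 change 1.70 ± 0.21, adjusted p = 1.97e-05). With both compounds Trim12a stayed within a narrow range of 771, 911 and 816, whereas Trim12c was at 1275, 1338 and 672, library 3 close to the unstimulated level.

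Trim34a (chr7:104244457-104262234) was at 435, 352 and 402 without stimulation and 1841, 1934 and 1988 with CMA, a rise of 2.28 ± 0.17 (adjusted p = 1.67e-07), and at 1329, 1578 and 923 with both compounds. The 4 groups formed 3 levels without overlap: both groups without CMA lowest, the doubly treated cells between, and CMA alone highest. Its near copy Trim34b was below the filter, with 6 reads in all without stimulation and 8 with CMA. Trim6, the remaining tested Trim5-like gene, was at 21.9 ± 0.349 without stimulation and 26.6 ± 11.8 with CMA and was not called (log2 change 0.16 ± 0.35, adjusted p = 0.76). These genes resemble each other, and no source used here says how the authors' counting treated reads that match more than 1 gene. Of the 50-base stretches in the exons of Trim34a 39.8% also occur in another gene, mostly Trim34b, and the share was 33% for Trim12c (mostly Trim5), 10.4% for Trim12a, 7.5% for Trim30d, 6% for Trim30a and 0.5% for Trim30b. The split of reads among Trim34a, Trim12c and their copies is uncertain to that extent.

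**Figure D1:**
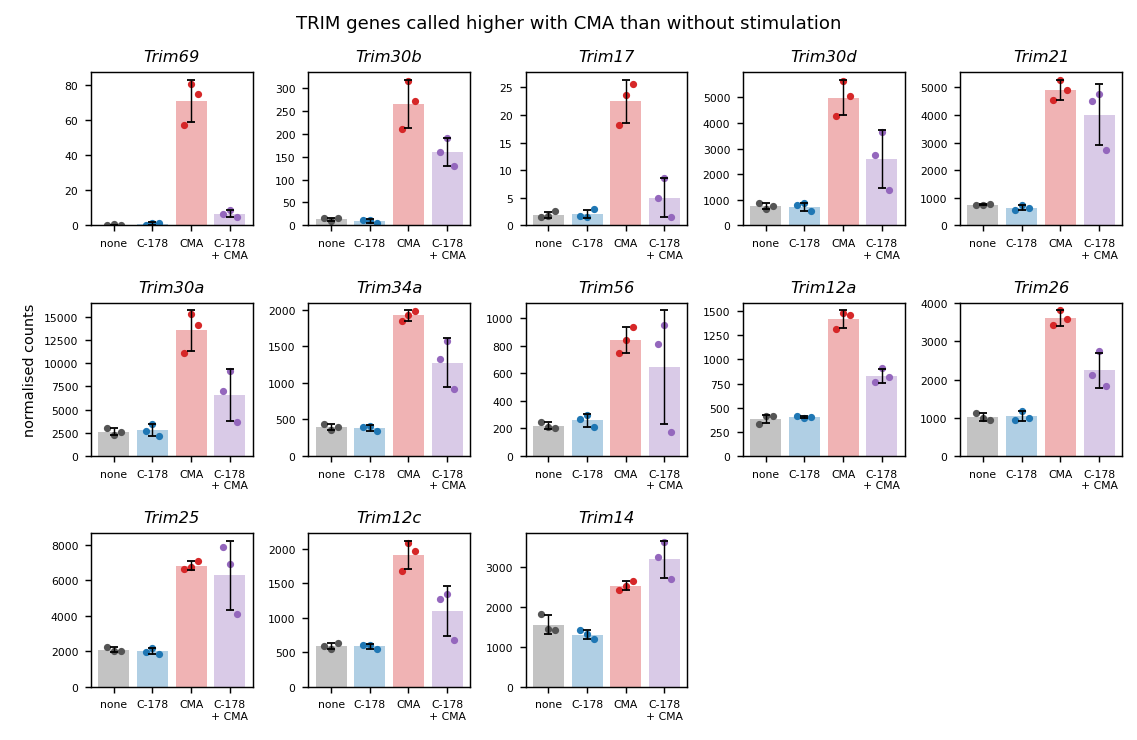
Normalised counts (y axis, linear, from 0) of the 13 members called higher with CMA than without stimulation, with 1 point per library, bars at the group mean and error bars of ± SD (n = 3). The red CMA points lie above all grey unstimulated points in every panel, and in Trim56 1 of the 3 purple C-178 plus CMA points, at 813, 945 and 171, lies below all grey points.

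Trim21, a cytosolic receptor for antibody-coated particles as well as a ligase, had a small spread between libraries within the unstimulated and the CMA group. It was at 741, 741 and 774 normalised counts without stimulation and 4562, 5288 and 4893 with CMA, 6.53 times higher (log2 change 2.70 ± 0.18, adjusted p = 5.06e-08). With both compounds it was at 4504, 4781 and 2746, where 2 libraries lay near the level of CMA alone and library 3 well under it. Trim25, the ligase that ubiquitinates the RNA sensor RIG-I, showed the same pattern at a higher level, with 2242, 1993 and 2002 without stimulation, 6621, 6744 and 7105 with CMA and 7850.2, 6915 and 4112 with both compounds. Its rise with CMA was 1.72 ± 0.19 (adjusted p = 6.09e-06). Trim56, a ligase reported to act on both cGAS and STING, rose from 246, 207 and 202 to 748, 841 and 934 (log2 change 1.94 ± 0.45, adjusted p = 0.00381). With both compounds it was at 813, 945 and 171: 2 libraries as high as with CMA and library 3 below every unstimulated library. The SE and adjusted p of the Trim56 rise with CMA come from the fit over all 12 libraries, this one included. Without that library in the limma fit the rise was again 1.94, with an adjusted p of 1.24e-07.

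Trim26, a ligase reported to act on nuclear IRF3, was at 1136, 994 and 947 without stimulation and 3418, 3815 and 3594 with CMA (log2 change 1.82 ± 0.15, adjusted p = 4.12e-07). With both compounds it was at 2119.6, 2746 and 1843, between the other groups and without overlap with either. Trim14, an adaptor without a RING that joins the MAVS complex and stabilises cGAS, had the smallest rise of the 13. It was at 1819, 1431 and 1406 without stimulation and 2408, 2530.3 and 2643 with CMA (log2 change 0.71 ± 0.14, adjusted p = 0.00102), and after quantile normalisation the change was 0.41. Its highest group was the doubly treated one, at 3248, 3624 and 2697, with every library above every CMA library. The gene overlaps Nans on the opposite strand, and without a stated strand setting their reads cannot be told apart.

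The remaining genes that rose were scarce. Trim69, a microtubule-binding member, was nearly absent without CMA: 1 read in all 3 unstimulated libraries together and 3 reads with C-178, against 117 with CMA, at 57.7, 80.9 and 75.3 normalised counts. The ratio of CMA to unstimulated summed levels was 322.5, with a 95% exact interval of 56.76 to 12850 that covers counting error only, and the fitted log2 change of 5.94 ± 0.44 (adjusted p = 1.40e-07) depends on the added count of 1 and fell to 3.86 with an added count of 5. With both compounds Trim69 was at 6.63, 8.57 and 4.58, a low level that still lay above both groups without CMA. Trim17 was at 1.52, 1.79 and 2.53 without stimulation and 18.1, 23.7 and 25.7 with CMA (log2 change 3.00 ± 0.50, adjusted p = 0.000295), resting on 9 and 37 reads. Its exons overlap those of the histone gene Hist3h2a on the same strand over 17.7% of their 50-base stretches.

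The members that fell with CMA were led by Trim65, Trim47, Trim8 and Trim16. Trim65, a ligase of the RNA sensor MDA5, was at 159.7, 158 and 170.2 normalised counts without stimulation and 21.4, 29.6 and 25.7 with CMA, a log2 change of -2.63 ± 0.21 (adjusted p = 3.67e-07). All 3 CMA libraries were at under 30 counts, and those with both compounds, at 70.3, 55.7 and 105, lay between the CMA and the unstimulated libraries without overlap. Trim47 was at 160.4, 140.3 and 123.4 without stimulation and 18.1, 43.4 and 16.5 with CMA (log2 change -2.52 ± 0.33, adjusted p = 3.05e-05). Library 2 was the highest of its CMA values, and with both compounds it was at 70.0, 49.98 and 74.9. Trim47 (chr11:116105752-116127210) and Trim65 (chr11:116121846-116131128) are neighbours on the minus strand of chromosome 11 whose exons overlap on the same strand, over 6.6% and 3% of their 50-base stretches, so a small part of their reads cannot be assigned to 1 of them.

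Trim8, a ligase that promotes NF-κB signalling downstream of TNF and interleukin-1, was the most abundant of these 4. It was at 1374, 1311 and 1200.2 normalised counts without stimulation and 264, 199 and 261 with CMA, a log2 change of -2.43 ± 0.20 (adjusted p = 3.64e-07). With C-178 alone it was at 1271, 999.7 and 1183 and with both compounds at 437, 484 and 788, which left the doubly treated cells between the resting and the CMA level. Trim16, a member without a RING that takes part in autophagy of damaged endomembranes, was at 138, 116 and 119 without stimulation and 19.8, 31.6 and 31.2 with CMA (log2 change -2.16 ± 0.20, adjusted p = 1.34e-06). With both compounds it was at 64.0, 51.4 and 58.1. Trim36, a COS box ligase associated with microtubules, was at 149.8, 142 and 159 without stimulation and 36.3, 55.3 and 53.2 with CMA (log2 change -1.64 ± 0.22, adjusted p = 4.48e-05). Its values with both compounds, 43.4, 41.4 and 26.0, overlapped those with CMA alone.

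The other 7 falls were smaller than 1 on the log2 scale. Trim41, a RING ligase of protein kinase C that also modifies cGAS, was at 1113, 1107 and 1050.3 without stimulation and 682, 459.9 and 539.6 with CMA (log2 change -0.98 ± 0.15, adjusted p = 0.000163), and it overlaps Rack1 on the opposite strand. Trim3, an NHL-repeat ligase best known in neurons, was at 412, 400.1 and 375 and 244, 235 and 220.3 (log2 change -0.76 ± 0.14, adjusted p = 0.000643). The groups did not overlap in any of the 7 genes. Trim24, a TIF1 cofactor of nuclear receptors, changed by -0.68 ± 0.16 (adjusted p = 0.00317) from 213, 227 and 231 to 114, 156 and 151. Trim35 changed by -0.66 ± 0.16 (adjusted p = 0.00588). Trim27 changed by -0.66 ± 0.19 (adjusted p = 0.014), from 325, 374 and 371 to 267, 191 and 224, and Trim39 by -0.54 ± 0.16 (adjusted p = 0.0167). Trim32, an NHL-repeat ligase known from muscle and reported to modify STING, changed by -0.53 ± 0.16 (adjusted p = 0.0161), from 154, 162 and 145 to 117, 101 and 101. The last 3 calls rest on single libraries: without CMA library 2 the adjusted p was 0.0713 for Trim27, 0.0565 for Trim39 and 0.0579 for Trim32. It was also above the threshold for Trim39 without unstimulated library 1 (0.0925), for Trim27 and Trim32 without unstimulated library a (0.0532 and 0.0685) and for Trim32 without CMA library 3 (0.0584).

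**Figure D2:**
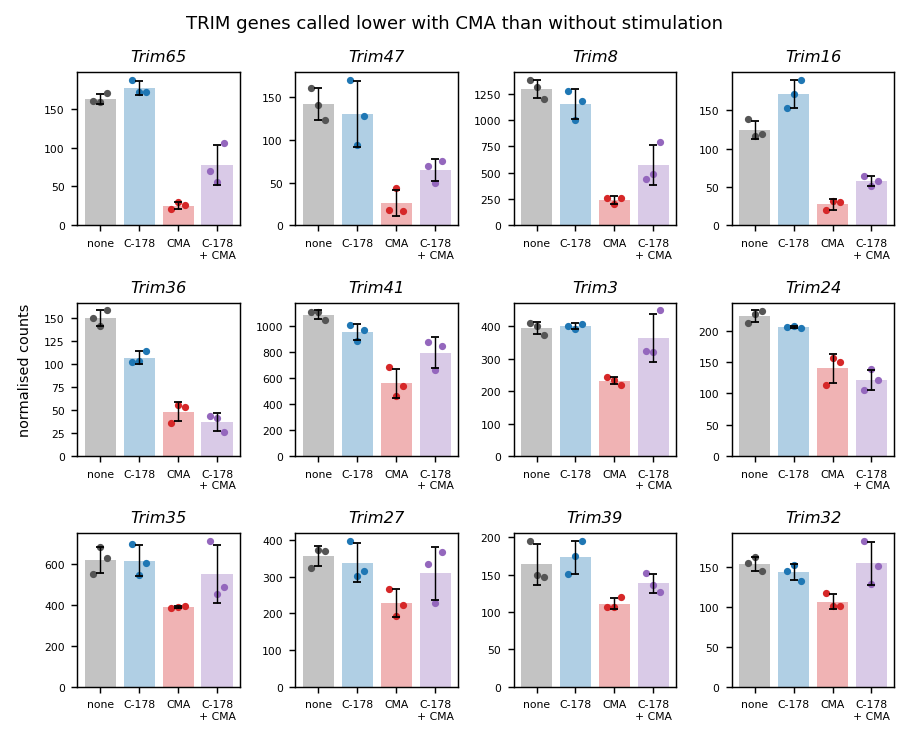
Normalised counts (y axis, linear, from 0) of the 12 members called lower with CMA than without stimulation, with 1 point per library, bars at the group mean and error bars of ± SD (n = 3). In Trim65, Trim47, Trim8 and Trim16 the purple points of the cells given both compounds lie between the CMA and the unstimulated points.

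The 13 tested members not called with CMA had log2 changes from -0.30 (Trim33) to 0.51 (Trim2), with adjusted p of 0.115 or more. With only the 2 groups in the fit, 16 members were called higher and 13 lower, against 27.9% and 26.9% of all tested genes. Trim28, the TIF1 corepressor that binds KRAB zinc finger proteins, was at 1124, 1130.4 and 1114 normalised counts without stimulation and 964, 1107 and 1037 with CMA (log2 change -0.12 ± 0.13, 95% interval -0.40 to 0.17). Trim33, the TIF1 member that binds SMAD proteins, was at 693 ± 20.2 and 563 ± 32.5. Its CMA libraries all lay below the unstimulated ones, and limma with only these 2 groups in the fit called it (-0.30, adjusted p = 0.00905). Among the other well-measured members Trim37 had the smallest difference, at 214 ± 14.7 without stimulation and 214 ± 21.8 with CMA (95% interval -0.30 to 0.31). Trim44, which carries a B-box but no RING, was at 1159 ± 148 and 1239 ± 43.0, and Trim11 at 303 ± 25.1 and 283 ± 4.08. Trim13, a ligase of the endoplasmic reticulum membrane, was at 79.4 ± 2.02 and 107 ± 16.9, Trim23 at 113 ± 12.2 and 124 ± 16.3, and Trim62 at 213 ± 12.1 and 258 ± 16.0. The scarce Trim68, Trim45 and Trim59 were at 33.0 ± 8.35, 18.5 ± 1.55 and 65.4 ± 8.90 without stimulation and 31.6 ± 14.1, 16.6 ± 8.09 and 71.1 ± 11.8 with CMA.

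C-178 without CMA left no member past the threshold. limma called 0 of 38 higher and 0 lower, against 0.0962% and 0% of all tested genes, with 1 member in each direction at an unadjusted p under 0.05 and 0 calls by edgeR or DESeq2. Log2 changes of the well-measured members ran from -0.48 (Trim36) to 0.46 (Trim16). Groups did not overlap for 2 members that were higher (Trim16 and Trim65) and 5 that were lower (Trim2, Trim36, Trim21, Trim24 and Trim41), against 7.87% and 7.68% of all tested genes. Trim36 was at 103, 104 and 115 with C-178, each below the unstimulated libraries, with a 95% interval of the log2 difference of -0.96 to -0.01. Trim16 was at 153, 172 and 190.3, each above them, with an interval of 0.03 to 0.89. For Trim30a the interval was -0.52 to 0.67, for Trim21 -0.61 to 0.16 and for Trim8 -0.60 to 0.25, so the lack of a call does not exclude changes inside them. These intervals are not adjusted for the number of genes tested, whereas the calls are.

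When C-178 was given with CMA, 8 of the 38 members were higher than with CMA alone and 11 lower, against 10.6% and 13.5% of all tested genes. All of the higher genes but Trim28 had fallen with CMA, and 8 of the 11 lower genes had risen with it. These 8 include Trim69 and Trim17, which passed the filter only through the CMA libraries. This comparison and that of CMA with no stimulation share the CMA libraries, so opposite signs in the 2 are no independent observation. The member median was -0.21 on the log2 scale beside 0 over all tested genes. Groups did not overlap for 12 members higher and 12 lower, against 17% and 18.5% of all tested genes. The counts depend on single libraries, and those over all tested genes moved with them. They were 5 and 5 without CMA library 2 (all tested genes 5.22% and 6.53%) and 6 and 7 without CMA library 3 (5.26% and 7.3%). Of the doubly treated cells, the counts were 5 and 10 without library 1 (7.34% and 10.6%), 10 and 15 without library 2 (19% and 22.1%) and 8 and 10 without library 3 (8.46% and 10.9%). With only the 2 groups in the fit they were 2 and 5 (2.28% and 5.18%).

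Among the Trim5-like genes 5 of 7 were lower with both compounds than with CMA. Trim12a differed by -0.77 ± 0.12 (adjusted p = 0.000874) and Trim12c by -0.86 ± 0.21 (adjusted p = 0.0111). Trim30a differed by -1.12 ± 0.28 (adjusted p = 0.0117), Trim30d by -1.05 ± 0.29 (adjusted p = 0.019) and Trim34a by -0.62 ± 0.17 (adjusted p = 0.0196). Library 3 of the doubly treated cells held the lowest value in each of these except Trim12a, and without it the differences were -0.74 for Trim30a, -0.65 for Trim30d, -0.54 for Trim12c, -0.41 for Trim34a and -0.76 for Trim12a. All 5 remained called (adjusted p of 0.0207, 0.0394, 0.00844, 0.0446 and 0.00142). Without CMA library 2, in contrast, the adjusted p was 0.0561 for Trim30a, 0.0774 for Trim30d, 0.0534 for Trim12c and 0.0651 for Trim34a, and without CMA library 3 it was 0.0615 for Trim30d and 0.07 for Trim34a. Trim30b was not called, with a difference of -0.72 ± 0.30 and an adjusted p of 0.0885.

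Of the signalling regulators that rose with CMA, Trim26 was lower with both compounds (-0.71 ± 0.15, adjusted p = 0.00529). Trim21 differed by -0.33 ± 0.18 (95% interval -0.72 to 0.05, adjusted p = 0.184) and Trim25 by -0.17 ± 0.19 (95% interval -0.57 to 0.23, adjusted p = 0.522), neither past the threshold. Without library 3 of the doubly treated cells these 2 values were -0.08 and 0.11, and Trim21 was called without library 2 (-0.48, adjusted p = 0.0472). Trim56 differed by -0.72 ± 0.45 (adjusted p = 0.253). Without library 3 its difference was 0.07, and without library 2 it was called at -1.16 (adjusted p = 0.0489), so 1 library decides this gene. Trim14 was higher with both compounds by 0.33 ± 0.14 but did not pass (adjusted p = 0.0992); without library 3 it was called at 0.44 (adjusted p = 0.0317). The scarce Trim69 fell by 3.27 on the log2 scale (adjusted p = 0.000294), to 6.59 ± 1.99 from 71.3 ± 12.1 normalised counts, and Trim17 by 2.15 (adjusted p = 0.00908).

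The 4 members with the largest falls lay closer to the resting level with both compounds. Trim65 was higher with both compounds than with CMA by 1.52 ± 0.21 (adjusted p = 0.000437), 3.02 times the CMA mean. Trim47 was higher by 1.40 ± 0.33 (adjusted p = 0.00899), Trim8 by 1.20 ± 0.20 (adjusted p = 0.00126) and Trim16 by 1.07 ± 0.20 (adjusted p = 0.00282). For these 4 genes every doubly treated library lay above every CMA library and below every unstimulated one. Trim3 was at 325, 319.9 and 451 with both compounds, higher than with CMA by 0.63 ± 0.14 (adjusted p = 0.00716) and overlapping the resting level. Trim41, at 881, 661 and 846, was higher by 0.51 ± 0.15 (adjusted p = 0.0277). Trim32, at 183, 129 and 151, was higher by 0.52 ± 0.16 (adjusted p = 0.0296). The calls of Trim41 and Trim32 were lost without CMA library 2 (adjusted p of 0.132 and 0.0984), without CMA library 3 (0.0879 and 0.0965) and without library 1 of the doubly treated cells (0.0796 and 0.0931), and that of Trim41 also without their library 3 (0.0607).

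A few members differed between the doubly treated and the CMA cells without having been called with CMA alone. Trim2, an NHL-repeat ligase, was at 79.1, 88.4 and 75.3 normalised counts without stimulation, 90.6, 120.4 and 141 with CMA and 45.1, 58.5 and 21.4 with both compounds, lower than with CMA by 1.56 on the log2 scale (SE 0.30, adjusted p = 0.00313). It was also below every unstimulated library. Trim13 was at 89.0, 122 and 110.1 with CMA and 43.1, 57.1 and 79.5 with both compounds (-0.86 ± 0.22, adjusted p = 0.0148). The call of Trim13 was lost without CMA library 2 (adjusted p = 0.0681), CMA library 3 (0.0544) or library 1 of the doubly treated cells (0.0529). Trim59, at 84.1, 61.2 and 67.9 and 52.1, 48.5 and 35.1, differed by -0.65 ± 0.21 (adjusted p = 0.0371), a call that edgeR (0.057) and DESeq2 (0.0587) did not make and that was lost in 13 of 24 alternatives. Trim28 was at 1434, 1127 and 1556 with both compounds and higher by 0.39 ± 0.13 (adjusted p = 0.0444). The Trim28 call was lost in 15 of 24 alternatives, among them each of those that left out a CMA or an unstimulated library.

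**Figure D3:**
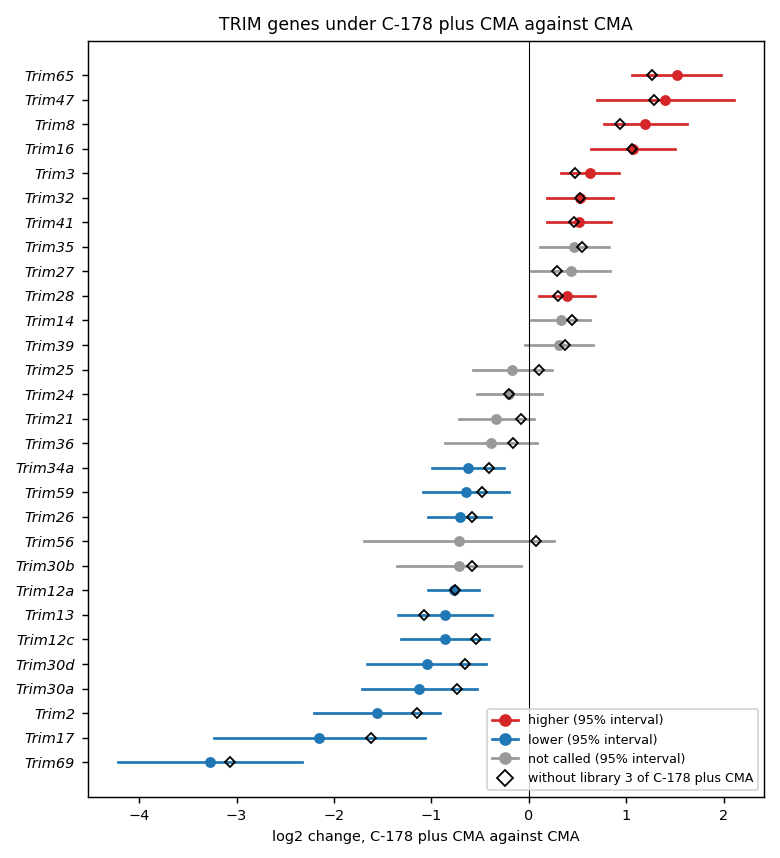
Log2 change between cells given C-178 plus CMA and cells given CMA alone (x axis) for the members called in this comparison or with CMA alone (y axis), with bars as 95% intervals, colour for the call and open diamonds for the value without library 3 of the doubly treated cells. Diamonds of Trim56 and Trim25 lie on the other side of 0 from the filled points, at 0.07 and 0.11.

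Against cells given C-178 alone, the doubly treated cells show what CMA did in the presence of the inhibitor. In that comparison 11 members were higher and 8 lower, against 13.5% and 12.6% of all tested genes. The 6 Trim5-like genes that CMA raised were called higher here too, from 0.85 ± 0.21 (Trim12c) to 3.94 ± 0.30 (Trim30b). Trim21 was higher by 2.60 ± 0.18 (adjusted p = 1.65e-07), Trim25 by 1.60 ± 0.19 (adjusted p = 2.75e-05) and Trim14 by 1.29 ± 0.14 (adjusted p = 1.29e-05). Trim56 was not called at 0.99 ± 0.45 (adjusted p = 0.124), but it was with edgeR (1.33, adjusted p = 0.0242), with DESeq2 (1.31, adjusted p = 0.0339) and, in limma, without library 3 of the doubly treated cells (1.77, adjusted p = 2.22e-06). Among the lower genes were Trim16 (-1.55 ± 0.20), Trim36 (-1.54 ± 0.22), Trim65 (-1.23 ± 0.21) and Trim8 (-1.06 ± 0.20). Trim33, which was not called with CMA alone, was lower by 0.90 on the log2 scale (SE 0.19), at 398, 565 and 310.2 against 696, 930.5 and 706 normalised counts. Trim47 (-0.97 ± 0.33, adjusted p = 0.0419) lost its call in 11 of 24 alternatives, among them the library number as a block (0.0919). The others included leaving out library 1 or 3 of the C-178 cells (0.143 and 0.0981), library 1 or 2 of the doubly treated cells (0.0629 and 0.0942) or any unstimulated library (0.0568 to 0.0597). Trim59 (-0.70 ± 0.21, adjusted p = 0.023) lost its call in 6 of 24, among them the block (0.0536) and leaving out library 2 or 3 of the C-178 cells (0.0863 and 0.0654) or library 3 of the doubly treated cells (0.0609). Against unstimulated cells the counts were 11 higher and 9 lower, against 11.1% and 10.5% of all tested genes.

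Setting the 2 CMA responses side by side, the part of the log2 change that was still present in the presence of C-178 ranged widely among the genes that CMA raised. It was 96.0% for Trim21, 93.3% for Trim25 and 93.2% for Trim30b. It was 75.0% for Trim34a, 63.3% for Trim30d and 60.2% for Trim26, with lower shares for Trim12a (55.3%), Trim12c (49.9%) and Trim30a (49.3%). It was 51.0% for Trim56, 31.5% for Trim69 and 26.7% for Trim17, and without library 3 of the doubly treated cells 91.2%, 34.9% and 44.3%. Without that library the shares were 105.6% for Trim21, 109.3% for Trim25, 96.7% for Trim30b, 84.2% for Trim34a, 77.7% for Trim30d and 67.0% for Trim26. They were then 68.8% for Trim12c, 65.25% for Trim30a and 55.85% for Trim12a, so the order of these last genes depends on library 3. Trim14 was at 181% (197% without library 3), a larger log2 change with C-178 than without. Among the members with falls of more than 1 on the log2 scale the share was 94.1% for Trim36, 71.8% for Trim16, 46.9% for Trim65, 43.5% for Trim8 and 38.6% for Trim47. In the same order it was 79.9%, 72.2%, 56.3%, 54.3% and 43.25% without library 3. Shares were recomputed only without library 3, the lowest library of most genes that rose, so they do not show how far they could go down. Over all alternatives the log2 change against C-178 ran from 0.54 to 1.77 for Trim56 (0.99 in the main fit). It ran from 0.88 to 1.54 for Trim30a (1.16) and from 1.39 to 1.88 for Trim25 (1.60). These shares have no error of their own, and whether the 2 responses of a gene differed was tested as an interaction.

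That interaction, the CMA response with C-178 minus the response without it, was called for 6 members: 3 higher and 3 lower, against 3.95% and 5.99% of all tested genes. The rise of Trim69 was smaller with C-178 (interaction -4.07 ± 0.62, adjusted p = 0.00256), as were those of Trim12a (-0.84 ± 0.17, adjusted p = 0.011) and Trim26 (-0.72 ± 0.21, adjusted p = 0.0469). The fall of Trim8 was smaller with C-178, by 1.37 ± 0.28 (adjusted p = 0.0112), that of Trim65 by 1.40 ± 0.30 (adjusted p = 0.015) and that of Trim47 by 1.55 ± 0.46 (adjusted p = 0.0496). Calls for Trim26 and Trim47 were lost in 14 and 12 of 21 alternatives. For Trim30a, whose difference was larger than that of Trim12a, the interaction was -1.20 ± 0.39 with an adjusted p of 0.0646, and DESeq2 called it (-1.13, adjusted p = 0.0328). For Trim21 the 95% interval was -0.65 to 0.44, for Trim25 -0.69 to 0.46 and for Trim30b -1.19 to 0.61. For Trim14 the interaction was 0.58 ± 0.20 (95% interval 0.15 to 1.00, adjusted p = 0.074) and was called with DESeq2 (0.59, adjusted p = 0.0461), after quantile normalisation (0.72, adjusted p = 0.0295) and without library 3 of the doubly treated cells (0.69, adjusted p = 0.0274). Without library 2 of the doubly treated cells 8 members were called higher and 12 lower, while the share of all tested genes called rose to 14.7% and 17.6%. Among those then called were Trim30a (-1.48), Trim12c (-1.03), Trim34a (-0.74) and Trim33 (-0.83) on the lower side and Trim32 (0.75), Trim27 (0.72) and Trim28 (0.54) on the higher side.

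**Figure D4:**
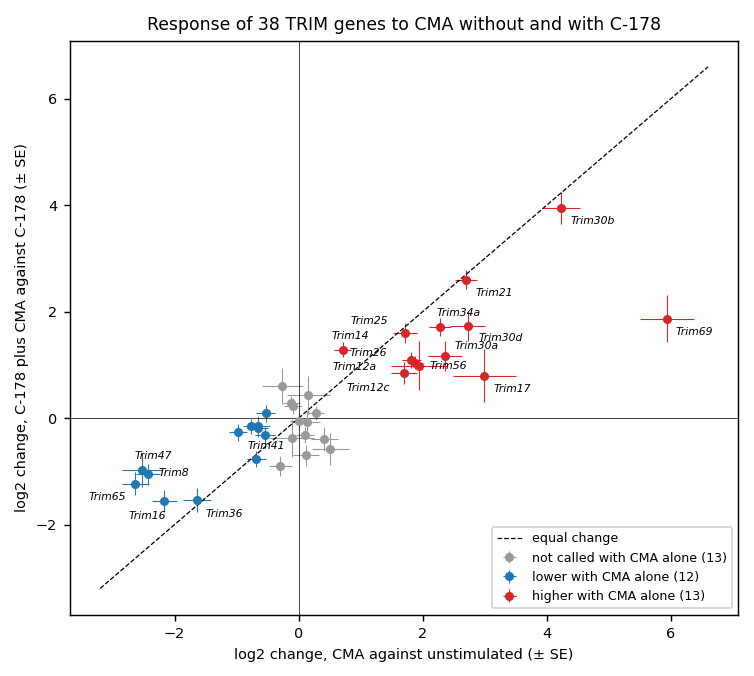
Log2 change with CMA in cells without C-178 (x axis) and with C-178 (y axis) for the 38 tested members, with error bars of ± SE, the dashed line of equal change and colour for the call with CMA alone. Trim30b, Trim21 and Trim25 lie near the dashed line, Trim14 above it, and Trim69 and Trim17 far below it.

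Library 3 of the doubly treated cells was the lowest of its group in 12 of the 13 members that CMA raised. Its log2 value minus the mean of libraries 1 and 2 ran from -2.35 (Trim56) to -0.04 (Trim12a), with a median of -0.757. In the 12 members that fell with CMA it was the highest library in 5 and the lowest in 2, with a median difference of 0.0833. Library 3 was the shallowest of that group at 7.7663 M reads, and no label sets it apart. Over the 6 comparisons, leaving it out added 11 member calls and removed 6. Against CMA alone it added Trim14 (given above) and Trim35 (0.55, adjusted p = 0.0425, 0.0534 with it) and removed Trim41, Trim28 (0.113) and Trim59 (0.103). Against C-178 it added Trim56, Trim17 (1.33, adjusted p = 0.0412, against 0.80 and 0.257 with it) and Trim13 (-0.62, adjusted p = 0.0359) and removed Trim59. Against unstimulated cells it added the same 3 genes, Trim56 at 2.00, Trim17 at 1.37 and Trim13 at -0.67 (adjusted p of 6.79e-07, 0.0377 and 0.027). With all libraries in, edgeR and DESeq2 also called Trim56 there (1.57 and 1.56, adjusted p of 0.0103 and 0.0102). The interaction gained Trim14 and Trim13 (-1.04, adjusted p = 0.0317) and lost Trim26 (0.0595) and Trim47 (0.0697). Trim2 was then called higher with CMA at 0.51 (adjusted p = 0.0453), its log2 change with all libraries being 0.51 (adjusted p = 0.203). Such a list was made for library 3 only. Leaving out library 2 of the doubly treated cells moved the counts further, to 10 members higher and 15 lower against CMA (all tested genes 19% and 22.1%). For the interaction they were 8 and 12 (14.7% and 17.6%).

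Levels of different members can be compared only per length, and here the mean normalised counts were divided by the length of the exons in kilobases. Without stimulation Trim30a was the most abundant well-measured member at 639 normalised counts per kilobase, followed by Trim25 (361), Trim14 (358), Trim8 (349) and Trim41 (310.5). At the other end stood Trim30b (1.77) and Trim2 (4.10). With CMA Trim30a reached 3293 per kilobase, and Trim30d (1329.8), Trim21 (1323) and Trim25 (1186) followed. Trim8 was then at 65.0, and Trim65 was the lowest at 4.35. With both compounds the order at the top was Trim30a (1607), Trim25 (1094), Trim21 (1079.7) and Trim14 (735). The exon length counts all annotated exons of a gene, so genes with many unused exons come out too low.

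**Figure D5:**
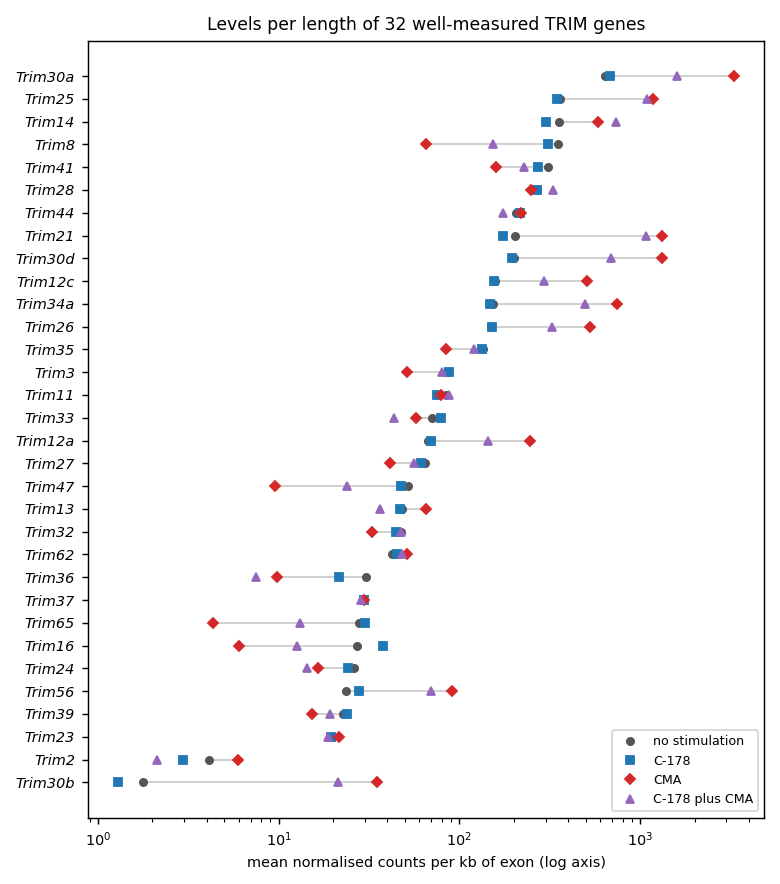
Mean normalised counts per kilobase of exon (x axis, log scale) of the 32 well-measured members in the 4 groups (n = 3 libraries each), ordered by the level without stimulation. The red CMA diamonds leave the grey unstimulated points to the right in the Trim5-like genes, Trim21, Trim25, Trim26 and Trim56 and to the left in Trim8, Trim47, Trim65 and Trim16.

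Genes of the family that carry other names, and the partners of TRIM ligases, were read from lists of their own. Of the 3 tested family genes under other names, 3 were higher with CMA and 3 lower with both compounds than with CMA, against 19.4% and 13.5% of all tested genes. Pml, the organiser of nuclear bodies, was at 1171 ± 171 without stimulation, 6672 ± 1098 with CMA and 4027 ± 1417 with both compounds, a rise of 2.51 ± 0.22 (adjusted p = 7.33e-07) and a difference from CMA of -0.78 ± 0.22 (adjusted p = 0.0218). Mid1, a COS box ligase, was at 43.6 ± 5.90, 182 ± 55.8 and 70.5 ± 45.8. Mefv, which encodes pyrin, was at 95.6 ± 7.33, 176 ± 37.2 and 79.6 ± 5.56, so that its mean with both compounds was below the resting mean.

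Of 12 ubiquitin E2 enzymes 4 were higher and 0 lower with CMA, and 0 were higher and 1 lower with both compounds than with CMA, against 19.4% and 17.9%, and 10.6% and 13.5%, of all tested genes. The 1 lower gene of 12 is near the share of all tested genes. Ube2l6, the E2 that conjugates ISG15, rose from 482 ± 114 to 2682 ± 214 normalised counts (log2 change 2.49 ± 0.17, adjusted p = 5.57e-08) and was at 2639.9 ± 356 with both compounds. Of 14 partners and substrates in nucleic acid sensing 8 were higher and 1 lower with CMA, and 1 was higher and 7 lower with both compounds than with CMA, against the same shares. Ddx58, which encodes the TRIM25 substrate RIG-I, was at 2437 ± 157 without stimulation, 21860 ± 2601 with CMA and 11113 ± 4792 with both compounds (difference from CMA -1.07 ± 0.25, adjusted p = 0.00913). Mb21d1, which encodes cGAS, was at 179.8 ± 21.9, 1525 ± 213 and 945 ± 315. Irf7, a target of interferon and of several TRIM ligases, was at 3049 ± 149, 19193 ± 1908 and 19487 ± 6625, with no call between the last 2 groups. Mavs, the adaptor that TRIM14 binds, was the single gene of the list that fell with CMA, from 949.5 ± 21.6 to 642 ± 104 (log2 change -0.58 ± 0.13, adjusted p = 0.00276). Tbk1, the kinase downstream of STING, was at 1731 ± 6.34, 2889.7 ± 267 and 1882 ± 288.

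The 15 members below the filter held few reads. Trim38, a regulator of Toll-like receptor signalling in other settings, had 10 reads in all without stimulation, 17 with C-178, 2 with CMA and 8 with both compounds. Trim66, the testis TIF1 member, had 19, 26, 3 and 13 reads in the same order, Trim9 had 13, 17, 1 and 7 and Trim46 had 18, 16, 3 and 20. Trim7 had 21, 17, 10 and 7. The CMA libraries were shallower than the unstimulated ones, so fewer reads there are not by themselves a lower level, and no test was made. The rest (Trim10, Trim29, Trim34b, Trim43a, Trim43b, Trim55, Trim58, Trim63, Trim67 and Trim72) had at most 12 reads in any group. Trim5 and Trim30c, named in the role lists, are not analysed here.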

How the data were processed

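RNA was sequenced in 12 libraries of macrophages, 3 in each of 4 groups, from a stranded TruSeq mRNA kit. Per the submitters' processing notes, the genome was mm10 and the tools were Bowtie2 2.2.1 and limma 3.18.13, with no role stated for limma. No source used here names the counting tool, the annotation or the strand setting. The table deposited by the authors holds a normalised signal per gene and library (normalised counts), whose header, with a mean and Cook's distances, has the form DESeq2 writes. Its 12 per-library columns of Cook's distance stayed out. Each column is whole multiples of a step for 100% of values (tolerance 0.01), from which reads were recovered. No library was a repeat of another.

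Genes above 10 in at least 3 libraries were tested on log2(value + 1) with limma 3.58.1 (R 4.3.3) and a mean-variance trend, over all 12 libraries in 1 fit without a replicate block, in 6 comparisons. The fit assumes equal spread in the groups. The method was tested on simulated data with the same spread in all groups and changes in the CMA group only. It therefore does not cover the wider spread of the doubly treated cells (median SD of log2 values over all tested genes 0.34, against 0.115 without stimulation). With 3 libraries against 3 an exact permutation test cannot go below p = 0.1, so none was used. Named were well-measured members called in CMA against unstimulated with an absolute log2 change of 1 or more or called in another comparison, with fixed names added (Trim14, Trim21, Trim24 to Trim28, Trim30a, Trim32, Trim33, Trim38, Trim56, Trim5, Trim12a, Trim12c and Trim34a), in most cases with the values of each library. Trim38 was below the filter and Trim5 is not analysed here. Trim69 and Trim17 were named as small classes. Trim39 and Trim35 were named after their values were seen. The members and all lists were chosen with earlier results of these data known.

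Alternatives were edgeR 4.0.16 and DESeq2 1.42.0 on the recovered reads, pseudocounts of 0.5 and 5, no filter and a stricter one, rescaling by TMM, quantile normalisation, only the 2 groups of a comparison, a replicate block and each library left out. Reads thinned to the shallowest library and a fit of the 3 treated groups were added after seeing the data. Library numbers were checked for pairing by correlating residuals. Libraries of the C-178 and doubly treated groups with the same number correlated at 0.45, 0.43 and 0.26, all above 0.1, so these numbers may pair the groups, which no label states. Between unlike numbers of these 2 groups the values ran from -0.31 to -0.09. The main fit, from which the calls come, does not use this possible pairing, which enters only through the replicate block. For CMA and doubly treated libraries of the same number the values were -0.14, 0.18 and -0.16. There the unlike pair of CMA library 1 and doubly treated library 3 reached 0.34, so a value above 0.1 does not by itself show pairing. Coordinates, exon lengths and shared stretches of 50 bases come from GENCODE M21 on GRCm38, the assembly of mm10. Promoters come from RefSeq (GRCm38.p6). Tables were made with pandas 2.3.3 and numpy 2.4.6 under Python 3.11.15 and plots with matplotlib 3.10.9.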

Additional observations from a re-analysis of the deposited data

Results flagged for a closer look

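In 6 members the response to CMA differed between cells with and without C-178 by the interaction test of limma. The log2 response with C-178 minus that without it was -4.07 in Trim69, -0.84 in Trim12a and -0.72 in Trim26, all of which rose with CMA. It was 1.37 in Trim8, 1.55 in Trim47 and 1.4 in Trim65, all of which fell with CMA. The value of Trim69 rests on 1 read without stimulation and 3 with C-178, and the gene passed the filter only through the CMA libraries. Without library 3 of the doubly treated cells the interaction was -3.86 for Trim69, -0.83 for Trim12a, -0.59 for Trim26, 1.11 for Trim8, 1.44 for Trim47 and 1.15 for Trim65. The adjusted p was then 0.0595 for Trim26 and 0.0697 for Trim47, both no longer under 0.05.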

How the results depend on the processing

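Over all alternatives 62 of 89 calls of single members were kept in each: 22 of 25 for CMA against unstimulated, 7 of 19 for C-178 plus CMA against CMA, 14 of 19 against C-178, 15 of 20 against unstimulated and 4 of 6 for the interaction. For C-178 plus CMA against CMA, members higher numbered 2 with only the 2 groups in the fit (2.28% of all tested genes) and 5 with only the 3 treated groups (5.86%). They numbered 5 to 10 when each library was left out (5.22% to 19%). Members lower numbered 5 with only the 2 groups (5.18%) and 5 to 15 when each library was left out (6.53% to 22.1%). The shares over all tested genes thus moved with the counts. The interaction gave 5 members higher after quantile normalisation (4.5% of all tested genes) and 6 with DESeq2 (6.7%). When each library was left out it gave 2 to 8 higher (1.07% to 14.7%) and 2 to 12 lower (1.83% to 17.6%). In C-178 against unstimulated, members without overlap and higher numbered 1 after rescaling by TMM and 1 with thinned reads. The number was 2 in the main setting, beside 7.87% of all tested genes, and the share over all genes was not counted for the other settings. For values that were not called, the sign turned when a library was left out: against CMA alone the doubly treated cells gave -1.16 to 0.07 for Trim56 and -0.35 to 0.11 for Trim25, against C-178 they gave -0.28 to 0.06 for Trim27, and the interaction of Trim25 was -0.3 to 0.17. The positive values came without library 3 of the doubly treated cells, and for Trim27 without their library 2. Quantile normalisation gave 0.06 for Trim25 against CMA alone. Trim56 was called at -1.16. The cause was not tested. With the replicate block, C-178 plus CMA against CMA gave 6 members higher and 10 lower (all tested genes 8.63% and 12.2%), and against C-178 11 and 6 (12.2% and 10.6%). Against CMA the block took away the calls of Trim28 (adjusted p = 0.0826), Trim32 (0.0598) and Trim59 (0.0715), in groups that share only a number, and against C-178 those of Trim47 and Trim59; it changed no other call. No paired analysis was possible because 2 unstimulated columns carry no number of their own, for comparisons with that group. With thinned reads C-178 plus CMA against CMA gave 7 members higher and 11 lower (all tested genes 9.2% and 12.4%). Over all tested genes, quantile normalisation turned the split of calls with CMA from 2224 higher and 2047 lower to 1953 and 2667. Members with few reads are limited by depth.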
